A study of Mus musculus with 8 samples.

Results

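The carbonic anhydrases described here are *Car1*, *Car2*, *Car3*, *Car5a*, *Car8*, *Car9*, *Car12* and *Car14*, 8 of the 16 carbonic anhydrase genes of the mouse looked for in the table of liver counts. These 8 were selected with measured values, but which values chose them is not stated. They are taken here as selected on the ISOGK against vehicle contrast in these same livers. Their differences between the groups are therefore given as a description without p, and the number called is given only beside the share of all genes. Of the 8 listed genes, 7 were among the 16540 gene symbols of the table and 6 were among the 12307 genes with enough counts to be tested. *Car12* was not in the table, and *Car9* had too few counts.

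Carbonic anhydrases are zinc enzymes that interconvert CO2 and bicarbonate with the release or uptake of a proton. In liver they are known for supplying bicarbonate to mitochondrial carboxylation and urea synthesis, for moving CO2 and acid equivalents across the hepatocyte membrane, and for the very abundant cytosolic form encoded by *Car3*. Some family members have lost the residues needed for catalysis and are called carbonic anhydrase-related proteins.

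The study asked how ISOGK (isoginkgetin, a biflavonoid of ginkgo that inhibits ATP citrate lyase) alters gene expression in the livers of mice prone to atherosclerosis. Liver RNA of 8 male *Apoe*-/- mice, which lack apolipoprotein E, was sequenced with 1 library per mouse. In the ISOGK group, 4 mice were injected intraperitoneally with 20 mg/kg of ISOGK per day for 8 weeks, and the 4 mice of the vehicle group received vehicle over the same 8 weeks. All 8 mice were on a diet that the labels name Western and the study's methods describe as high in cholesterol, begun before the injections. The labels give neither strain nor age. No mouse without the *Apoe* deletion or without the diet was sequenced, so every value below is from livers that carry both.

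The vehicle libraries held 19605286, 24461854, 23589084 and 21392947 counts, and the ISOGK libraries 21033733, 19742935, 17457106 and 21626399 (two-sided exact permutation test, p = 0.2, with 0.0286 the smallest p that 4 against 4 allow). At these depths 1 count was worth 0.0389 to 0.0565 CPM. CPM are counts relative to library size, here after scaling with the TMM factors of edgeR. Intervals and floors drawn from such counts cover counting error only.

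The labelled tissue was checked against 10 hepatocyte markers, all of which were in every library. Their summed level was 171678 to 186860 CPM in the vehicle group and 157718 to 213139 CPM in the ISOGK group, with *Alb* the most abundant at a mean of 124402 CPM. None of the 10 was called, that is, had an adjusted p under 0.05 in edgeR's quasi-likelihood fit over all tested genes, while 1 had an unadjusted p under 0.05, DESeq2 called 1 and limma-voom 0. The liver of vehicle mouse 4 stood apart: all 12 skeletal muscle markers had their highest count there, and their summed level was 86.9 CPM against 0 to 0.623 CPM in the other 7 livers. *Myh4* was the most abundant of them, with 451 counts in that library and 0 or 1 count in the others. Skeletal muscle also contains *Car3* mRNA, so the main values of the carbonic anhydrases are also given without that library. Within the ISOGK group, mouse 4 was the liver farthest from the others, with a chi-squared per gene between libraries of 67.4 to 77.9 against 26.1 to 52.8 among the other 3, and 14.6 to 26.5 among the vehicle livers. Its TMM factor, 0.883, was the lowest of the 8. Without it the log2 fold changes were -2.63 for *Car3*, -0.97 for *Car5a*, -0.50 for *Car8*, -0.51 for *Car14*, -0.47 for *Car1* and 0.24 for *Car2*.

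*Car3* encodes a cytosolic carbonic anhydrase with low CO2 hydration activity, known to be abundant in hepatocytes, adipocytes and slow skeletal muscle. The gene (Ensembl ENSMUSG00000027559) lies on the plus strand of chromosome 3 from 14863512 to 14872523 in GRCm38. Its counts were 15546, 24547, 16940 and 23696 in vehicle mice 1 to 4, and 1811, 4507, 1650 and 2562 in ISOGK mice 1 to 4. Scaled, these were 779.7, 971, 659 and 1058 CPM with vehicle and 88.8, 238, 93.2 and 134 CPM with ISOGK. The groups did not overlap: the highest ISOGK liver, that of mouse 2, lay below the lowest vehicle liver, that of mouse 3. The means were 867 ± 181 CPM with vehicle and 138 ± 69.2 CPM with ISOGK (SD, n = 4 each), so that the ISOGK mean was 16.0% of the vehicle mean. The log2 fold change of *Car3* was -2.65, with a standard error (SE) of 0.34. In bulk liver RNA, fewer cells of a type and less RNA per cell cannot be told apart, here and in every value below.

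Vehicle mouse 4, the liver with muscle markers, had the highest *Car3* level of the 8. Without it the vehicle mean of *Car3* was 803 ± 157 CPM (SD, n = 3), of which the ISOGK mean was 17.2%. The log2 fold change of *Car3* was then -2.54, and without ISOGK mouse 2, the highest of its group, it was -3.04. With each other library left out in turn it lay between -2.76 and -2.48. The muscle markers were at most 0.623 CPM in the other 7 livers, where *Car3* ranged from 88.8 to 971 CPM. Their part in the *Car3* level of vehicle mouse 4 was not tested.

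*Car5a* encodes the mitochondrial carbonic anhydrase of liver, known to supply bicarbonate to carbamoyl phosphate synthetase and pyruvate carboxylase. The gene (Ensembl ENSMUSG00000025317) lies on the minus strand of chromosome 8 from 121916126 to 121944904. Its promoter and that of *Car14* are shown because these were the expressed members with an entry in the promoter table used here. That table is from RefSeq (build GRCm38.p6), covers 250 bases before to 50 bases after each start, and matched 4 of the 8 listed genes by symbol: *Car5a*, *Car9*, *Car12* and *Car14*. *Car1*, *Car2*, *Car3* and *Car8* had no entry. The *Car5a* promoter is chr8:121944863-121945162 (minus strand) and that of *Car14* is chr3:95904636-95904935 (minus strand), each written 5′ to 3′ with the matches to the searched motifs in capitals.
Car5a: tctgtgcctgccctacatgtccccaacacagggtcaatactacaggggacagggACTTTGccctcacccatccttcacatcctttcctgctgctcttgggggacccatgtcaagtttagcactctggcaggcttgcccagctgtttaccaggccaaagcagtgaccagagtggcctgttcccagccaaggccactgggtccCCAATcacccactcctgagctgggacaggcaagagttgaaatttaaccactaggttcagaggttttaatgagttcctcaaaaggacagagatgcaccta
Car14: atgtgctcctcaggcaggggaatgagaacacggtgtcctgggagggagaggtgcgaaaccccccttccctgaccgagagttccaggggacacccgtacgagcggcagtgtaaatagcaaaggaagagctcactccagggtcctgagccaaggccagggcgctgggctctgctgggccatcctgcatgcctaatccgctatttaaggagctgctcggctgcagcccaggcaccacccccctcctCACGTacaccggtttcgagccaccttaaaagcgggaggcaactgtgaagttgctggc
Both strands were searched for 7 motifs. Of the 32851 promoters of the table, 13.6% held the motif TATAAA bound by the TATA-binding protein, 37.4% held CCAAT bound by NF-Y, and 35.7% held GGGCGG bound by Sp factors. The core of the hypoxia response element, ACGTG, was in 19.6%, and the nuclear receptor core AGGTCA was in 16.3% of them. The letters CAAAGT, a portion of the HNF4 motif, were in 14.4%, and the STAT motif TTCNNNGAA was in 8.3%. The motifs were chosen after the data had been seen, and a match describes letters in the window and no more. In the *Car5a* window the capitals mark CAAAGT on the other strand, starting 196 bases before the start, and CCAAT starting 49 bases before it. In the *Car14* window they mark ACGTG on the other strand, starting 7 bases before the start. The *Car5a* window had 0 CpG and 53.7% GC, and the *Car14* window 13 CpG and 61% GC, beside medians of 7 CpG and 52.7% GC over all promoters of the table.

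*Car5a* had 752, 981, 843 and 854 counts in the vehicle livers and 404, 331, 342 and 186 counts in the ISOGK livers. Scaled, its level was 37.7, 38.8, 32.8 and 38.1 CPM with vehicle and 19.8, 17.5, 19.3 and 9.74 CPM with ISOGK. The vehicle livers lay close together, the ISOGK livers all lay below them, and ISOGK mouse 4 was the lowest. The means were 36.9 ± 2.73 and 16.6 ± 4.67 CPM (SD, n = 4 each), with the ISOGK mean at 45.0% of the vehicle mean and a log2 fold change of -1.15 (SE 0.19). Without ISOGK mouse 4 the log2 fold change was -0.97. Exons of *Car5a* overlap those of a long noncoding gene on the other strand, *BC048644*, which was not in the table. *Car5b*, which encodes the other mitochondrial form, is outside the 8 selected genes. It had 45, 69, 55 and 61 counts with vehicle and 37, 37, 33 and 42 with ISOGK, with a log2 fold change of -0.33 (SE 0.19, adjusted p = 0.317 in edgeR). Its groups overlapped, since the highest ISOGK liver, at 2.20 CPM, exceeded the lowest vehicle liver, at 2.14 CPM. Whether *Car5a* and *Car5b* differed in their response was not tested.

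*Car14* encodes a carbonic anhydrase anchored in the plasma membrane with its catalytic domain outside the cell, known from the hepatocyte membrane. The gene (Ensembl ENSMUSG00000038526) lies on the minus strand of chromosome 3 from 95897768 to 95904691. It had 657, 890, 578 and 747 counts with vehicle and 424, 521, 299 and 407 counts with ISOGK. These were 33.0, 35.2, 22.5 and 33.3 CPM in the vehicle livers and 20.8, 27.5, 16.9 and 21.3 CPM in the ISOGK livers. The groups overlapped, because ISOGK mouse 2 lay above vehicle mouse 3. The means were 31.0 ± 5.75 and 21.6 ± 4.38 CPM (SD, n = 4 each), a log2 fold change of -0.52 (SE 0.17). Exons of *Car14* overlap exons of *Aph1a* on the other strand, and the use of strand in counting is not given in the sources used here. *Aph1a*, chosen for this overlap, had 58.3 ± 4.86 CPM with vehicle and 64.7 ± 7.33 CPM with ISOGK, with a log2 fold change of 0.15 (SE 0.10, adjusted p = 0.404 in edgeR).

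*Car8* encodes a carbonic anhydrase-related protein without catalytic activity that binds the inositol trisphosphate receptor. The gene (Ensembl ENSMUSG00000041261) lies on the minus strand of chromosome 4 from 8143362 to 8239041. It had 1046, 1622, 1297 and 1135 counts with vehicle and 839, 614, 749 and 551 counts with ISOGK. Its level was 52.5, 64.1, 50.5 and 50.7 CPM in the vehicle livers and 41.1, 32.4, 42.3 and 28.9 CPM in the ISOGK livers. The groups did not overlap, vehicle mouse 2 was well above the other vehicle livers, and ISOGK mouse 4 was the lowest, as for *Car5a*. The means were 54.4 ± 6.53 and 36.2 ± 6.59 CPM (SD, n = 4 each), with the ISOGK mean at 66.5% of the vehicle mean and a log2 fold change of -0.59 (SE 0.13). Without vehicle mouse 2 the log2 fold change was -0.50.

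*Car2* encodes the fast cytosolic carbonic anhydrase, known from red blood cells, bile duct cells and many other cells. It lies on the plus strand of chromosome 3 from 14886273 to 14900770 and had 74, 106, 65 and 68 counts with vehicle and 88, 77, 62 and 55 counts with ISOGK. These were 3.71, 4.19, 2.53 and 3.04 CPM with vehicle and 4.31, 4.06, 3.50 and 2.88 CPM with ISOGK, so that the groups overlapped over most of their range. The means were 3.37 ± 0.732 and 3.69 ± 0.637 CPM (SD, n = 4 each), a log2 fold change of 0.13 (SE 0.20). *Car1* encodes the cytosolic form best known from red blood cells and lies on the minus strand of chromosome 3 from 14766216 to 14808368. It had 37, 42, 36 and 39 counts with vehicle and 23, 24, 21 and 31 counts with ISOGK, or 1.86, 1.66, 1.40 and 1.74 CPM against 1.13, 1.27, 1.19 and 1.62 CPM. Only ISOGK mouse 4 reached into the range of the vehicle livers for *Car1*. Its means were 1.66 ± 0.193 and 1.30 ± 0.222 CPM (SD, n = 4 each), a log2 fold change of -0.35 (SE 0.23).

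*Car9* and *Car12* encode transmembrane forms best known from cells short of oxygen and from tumours. *Car9* had 6, 4, 5 and 0 counts with vehicle and 8, 5, 3 and 6 counts with ISOGK, which is 0.163 ± 0.125 and 0.285 ± 0.0933 CPM (SD, n = 4 each). The groups overlapped, and at this depth no difference was detectable. Exons of *Car9* also overlap an antisense gene, *Gm12454*. The *Car12* symbol was not in the table, and no value is given for it.

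**Figure D1:**
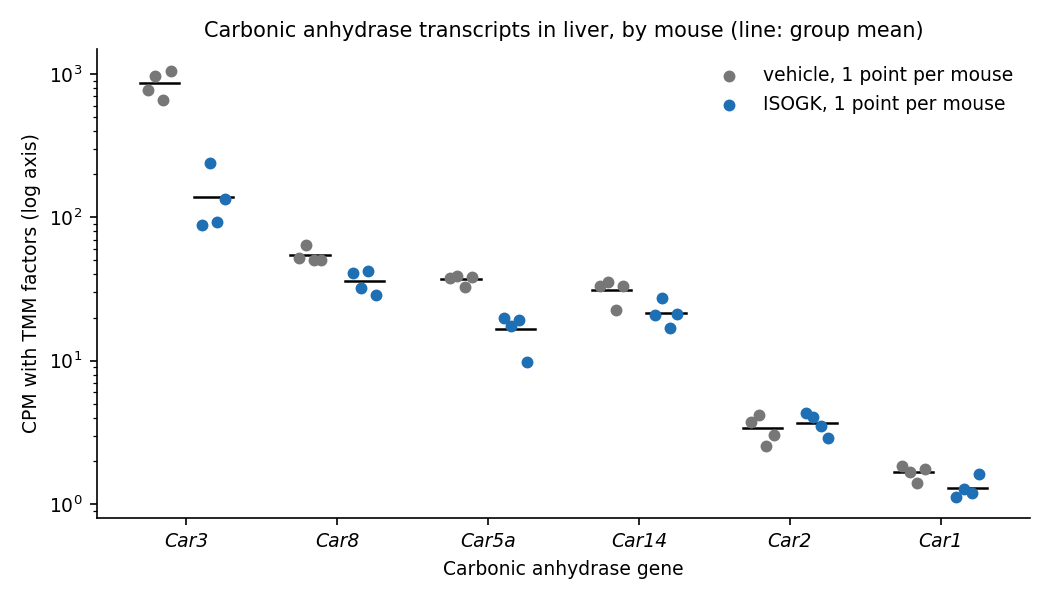
Level of each tested selected carbonic anhydrase in each liver, in CPM with TMM factors on a log axis, with 1 point per mouse and a line at the mean of 4. *Car3*, *Car8* and *Car5a* have every ISOGK point below every vehicle point, while the points of *Car14*, *Car2* and *Car1* overlap.

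Of the 8 selected genes, of which 6 were tested, 3 were called lower with ISOGK (*Car3*, *Car5a* and *Car8*) and 0 higher, by edgeR's adjusted p over the whole table. By the same rule 3.44% of all tested genes were lower, 4.11% higher and 7.55% called in either direction. The same 3 genes had every ISOGK liver below every vehicle liver, as had 7.35% of tested genes. Since the genes are taken as selected on this contrast, nothing is read from these counts. The number of selected genes called was 2 to 4 over the 16 alternative fits. It was 2 without vehicle mouse 2, where 379 of all 12438 tested genes were called. With DESeq2 it was 4, where 1435 of all 12307 were called. *Car8* was no longer called without vehicle mouse 2 (log2 fold change -0.50) or without ISOGK mouse 2 (-0.54). *Car14* was called in 5 of the 16, which were DESeq2, library size alone, the block on replicate number, and the fits without vehicle mouse 3 (-0.65) and without ISOGK mouse 2 (-0.65). Without vehicle mouse 4, the liver with muscle markers, the log2 fold changes were -1.14 for *Car5a*, -0.62 for *Car8* and -0.48 for *Car14*.

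The 4 selected genes with the most counts did not share an order of the mice. Within groups, the correlation r was 0.81 for *Car3* with *Car14* and 0.77 for *Car5a* with *Car8*. For the other pairs of these genes it was -0.45 to 0.07. ISOGK mouse 2 was the highest of its group for *Car3* and *Car14*, ISOGK mouse 3 for *Car8* and ISOGK mouse 1 for *Car5a*. ISOGK mouse 4 was the lowest of its group for *Car5a* and *Car8*, ISOGK mouse 3 for *Car14* and ISOGK mouse 1 for *Car3*. Among the vehicle livers, mouse 3 was the lowest for *Car3*, *Car5a*, *Car8* and *Car14* alike. Mouse 2 was the highest vehicle liver for *Car5a*, *Car8* and *Car14*, and mouse 4 for *Car3*.

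Summed over the 7 selected genes in the table, carbonic anhydrase reads made up 909, 1115, 769 and 1184 CPM in the vehicle livers and 176, 321, 177 and 199 CPM in the ISOGK livers. The means were 994 ± 190.3 and 218 ± 69.1 CPM (SD, n = 4 each), with the ISOGK mean at 21.9% of the vehicle mean. Without vehicle mouse 4 the vehicle mean was 931 ± 174 CPM (SD, n = 3) and the share 23.4%. This sum counts reads, so long transcripts weigh more in it. *Car3* supplied 85.8%, 87.1%, 85.7% and 89.3% of the sum in the vehicle livers. In the ISOGK livers its share was 50.3%, 74.1%, 52.8% and 67.5%, and each of these lay below each vehicle share. Without *Car3* the sum was 129, 144, 109.9 and 127 CPM with vehicle and 87.5, 82.9, 83.4 and 64.7 CPM with ISOGK. That remainder averaged 127 ± 14.0 and 79.7 ± 10.2 CPM (SD, n = 4 each), with the ISOGK mean at 62.5% of the vehicle mean. With CPM from library size alone the total was 1039 and 208 CPM.

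**Figure D2:**
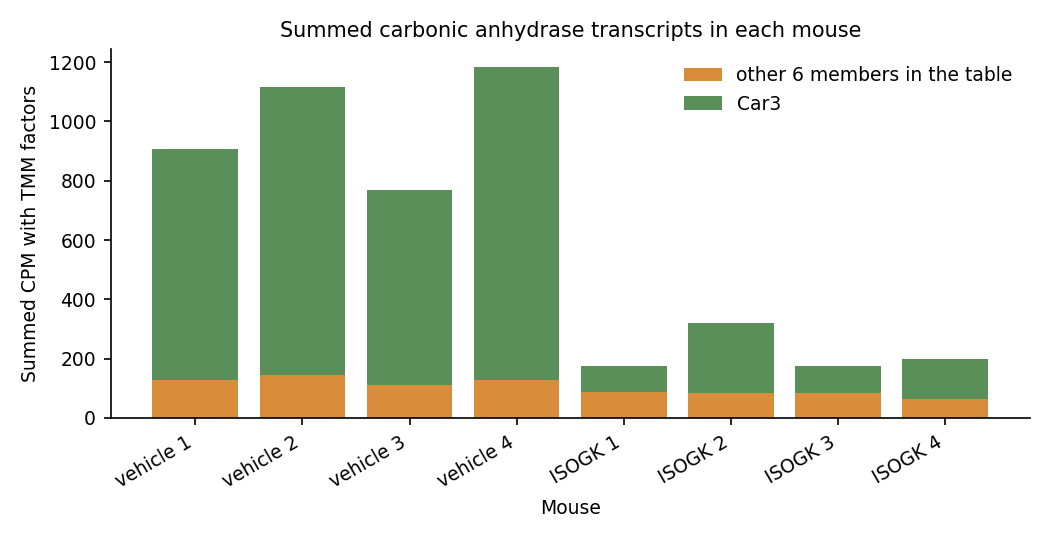
Summed CPM of the 7 selected carbonic anhydrases in the table for each mouse, as stacked bars split into *Car3* and the other 6. The *Car3* block is most of every vehicle bar, between 85.7% and 89.3%, and between 50.3% and 74.1% of the ISOGK bars.

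Levels of different genes were compared per length, as CPM per kilobase of the union of annotated exons. In the vehicle group *Car3* stood at 303 ± 63.0 CPM per kilobase, *Car5a* at 27.5 ± 2.04, *Car8* at 14.1 ± 1.69 and *Car14* at 12.2 ± 2.26 (SD, n = 4 each). *Car2* followed at 1.39 ± 0.302 and *Car1* at 1.33 ± 0.155 CPM per kilobase (SD, n = 4 each). In this order of vehicle levels *Car8* and *Car14* did not differ beyond their spread, and neither did *Car2* and *Car1*. In the ISOGK group the level per kilobase was 48.3 ± 24.2 for *Car3*, 12.4 ± 3.49 for *Car5a*, 9.39 ± 1.71 for *Car8* and 8.5 ± 1.72 for *Car14* (SD, n = 4 each). *Car2* and *Car1* stood at 1.52 ± 0.263 and 1.04 ± 0.178 CPM per kilobase with ISOGK. The order was thus the same in both groups for these 6 genes, and in the ISOGK group the ranges of *Car5a*, *Car8* and *Car14* overlapped. Among 16189 genes with a length, *Car3* ranked 137 by vehicle level per length and 684 by ISOGK level, and *Car5a* ranked 1031 and 2045. Without vehicle mouse 4 the vehicle level of *Car3* was 280.3 ± 54.8 CPM per kilobase (SD, n = 3), and it ranked 144. With the length of the longest transcript in place of the exon union, *Car14* came before *Car8* in both groups, and so did *Car5b* before *Car13*, which are described below.

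Of the 8 carbonic anhydrases outside the selected genes, 7 were in the table and 3 passed the filter, *Car5b*, *Car13* and *Car7*, and *Car10* was not in the table. *Car13* and *Car7* encode cytosolic forms. *Car13* had 36, 42, 36 and 26 counts with vehicle and 39, 26, 19 and 12 with ISOGK, and *Car7* had 6, 14, 15 and 20 against 11, 5, 10 and 8. The groups overlapped for both, with log2 fold changes of -0.26 (SE 0.32, adjusted p = 0.660 in edgeR) and -0.39 (SE 0.40, adjusted p = 0.602 in edgeR). With 1 library left out in turn they ranged from -0.55 to -0.04 for *Car13* and from -0.59 to -0.12 for *Car7*. In edgeR 0 of the 3 were called, 0 had an unadjusted p under 0.05, and DESeq2 and limma-voom called 0. Their median log2 fold change was -0.33, beside 0.00 over all tested genes. The 7 genes in the table summed to 4.86 ± 0.308 CPM with vehicle and 3.80 ± 0.451 CPM with ISOGK (SD, n = 4 each), with every ISOGK liver below every vehicle liver, but without *Car5b* the groups overlapped. Per kilobase the 3 tested genes stood at 0.655 (*Car13*), 0.387 (*Car5b*) and 0.160 (*Car7*) CPM with vehicle and at 0.542, 0.308 and 0.123 CPM with ISOGK. The selected *Car9* stood at 0.0709 CPM per kilobase with vehicle, below all 3, and at 0.124 CPM with ISOGK, beside *Car7* by exon union but below it by longest transcript (0.141 against 0.230 CPM).

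*Car11*, whose product is a related protein without catalytic activity, had 2, 3, 13 and 1 counts with vehicle and 1, 3, 2 and 0 with ISOGK. *Car15* and *Car4* encode forms tethered to the outer membrane face, and *Car6* the secreted form of saliva. *Car15* had at most 3 counts in any library, *Car4* at most 2 and *Car6* at most 1. *Car4* was at 0 in all 4 ISOGK livers and at 0 to 2 counts in the vehicle livers, which is too few for a fold change. At this depth, 3 counts, the floor used here for a library at 0, correspond to 0.117 to 0.170 CPM.

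**Figure D3:**
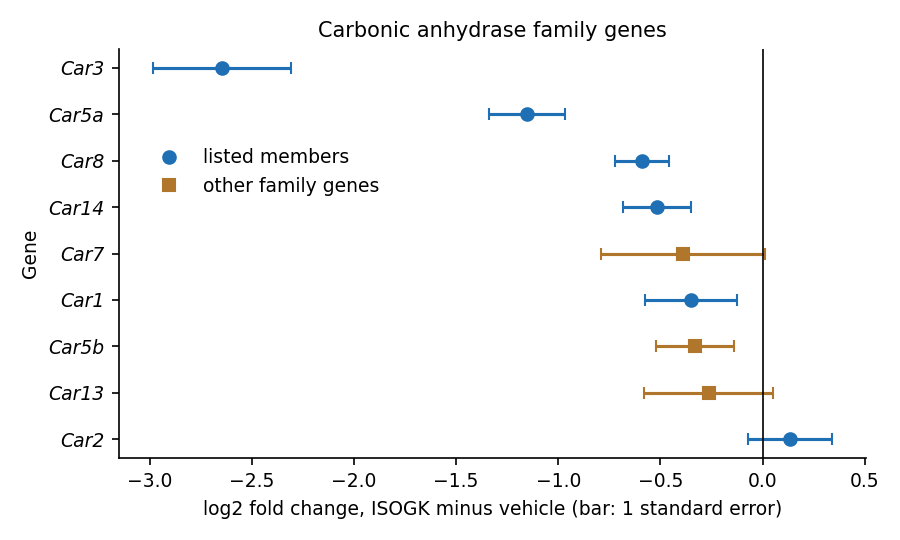
Log2 fold change, ISOGK minus vehicle, of the 9 tested carbonic anhydrase genes, with bars of 1 standard error. *Car3* lies at -2.65 and *Car5a* at -1.15, while the 3 genes outside the selected ones lie between -0.39 and -0.26.

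*Car13*, *Car1*, *Car3* and *Car2* lie side by side on chromosome 3, a family cluster that arose by gene duplication. From the start of *Car13* to the end of *Car2* the cluster spans 259 kilobases. The end of *Car3* is 13.7 kilobases from the start of *Car2*, and the starts of *Car3* and *Car1*, on opposite strands, are 55.1 kilobases apart. Within the cluster the log2 fold changes were -0.26 for *Car13*, -0.35 for *Car1*, -2.65 for *Car3* and 0.13 for *Car2*. The differences between these neighbours were not tested, since *Car1*, *Car2* and *Car3* are taken as selected on the contrast. Within 2 megabases of the *Car3* start, a window chosen after the data had been seen, 12 genes were in the table and 10 were tested. Of the 6 tested genes in it that are not carbonic anhydrases, edgeR called 0, 1 had an unadjusted p under 0.05, and DESeq2 and limma-voom called 0. Their log2 fold changes ran from -0.26 to 0.82, with a median of -0.10. *Car14* is on the same chromosome outside this window.

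**Figure D4:**
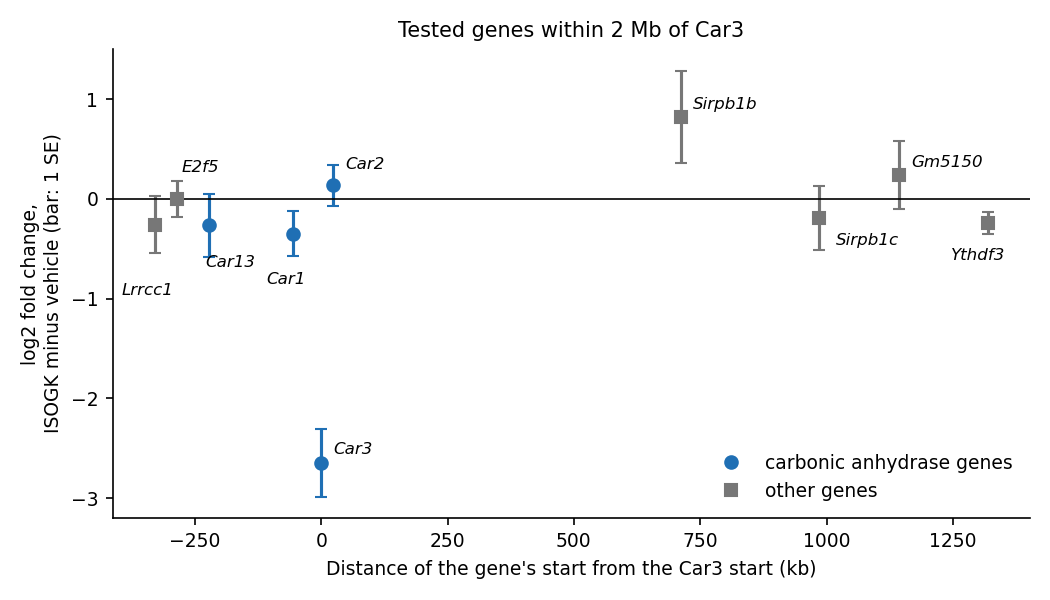
Log2 fold change, ISOGK minus vehicle, of the tested genes near *Car3* against the distance of each start from the *Car3* start in kilobases, with bars of 1 standard error. *Car3* lies at -2.65, and the other 9 genes lie between -0.35 and 0.82.

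The genes whose levels were most like those of each carbonic anhydrase were found by Pearson's r of log2 CPM over the 8 livers. A few tested genes were left out of this ranking. Such an r also carries the difference between the groups and the shared libraries, and is given as a description. For *Car3* the 3 highest were *Tmem19* (r = 0.988), *Gamt* (r = 0.984) and *Akr1c20* (r = 0.974), over n = 8. *Gamt* encodes the enzyme that makes creatine, and its log2 fold change was -1.03. With the group means taken out, the 3 genes most like *Car3* were others, *Stk40* (r = 0.973), *Ttc17* (r = 0.971) and *4930579G24Rik* (r = 0.966). For *Car5a* the highest were *Ddah1* (r = 0.986), *Lpl* (r = 0.984) and *Serpind1* (r = 0.984). For *Car8* they were *Zeb2* (r = 0.981), *Pdcd4* (r = 0.977) and *Rdx* (r = 0.975), and for *Car14* *Fggy* (r = 0.973), *Plg* (r = 0.952) and *Agxt2* (r = 0.950). The low-count genes had *Haus2* (r = 0.974), *Arl13b* (r = 0.957) and *Chic2* (r = 0.949) for *Car2*, and *Pik3r3* (r = 0.932) and *M6pr* (r = 0.920) were among those most like *Car1*. None of the genes named here was named for 2 carbonic anhydrases.

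Carbonic anhydrases work beside transporters that carry bicarbonate, protons and lactate across membranes. Membrane-bound forms such as that of *Car14* act at the outer face, where bicarbonate cotransporters and exchangers deliver or remove their substrate. Monocarboxylate transporters move lactate together with a proton, which cytosolic carbonic anhydrases help to buffer. Of 17 listed bicarbonate transporters, 15 were in the table and 7 were tested, of which 1 was called higher and 1 lower, at a median log2 fold change of -0.17 beside 0.00 over all tested genes. *Slc4a4*, which encodes a sodium bicarbonate cotransporter, rose from 85.8 ± 7.79 to 161 ± 25.3 CPM (SD, n = 4 each). Its log2 fold change was 0.91 (SE 0.12, adjusted p = 0.00178 in edgeR), every ISOGK liver was above every vehicle liver, and it was called in all 16 alternatives. *Slc26a1*, which encodes an exchanger of sulfate, oxalate and bicarbonate, fell from 166 ± 11.7 to 122 ± 18.9 CPM (SD, n = 4 each), a log2 fold change of -0.44 (SE 0.12, adjusted p = 0.0418 in edgeR). It was called in 8 of 16 alternatives, and its adjusted p was 0.0640 to 0.102 in edgeR without any 1 of vehicle mice 1, 2, 3 and 4 or ISOGK mice 1, 2 and 4.

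Of 9 tested proton and monocarboxylate transporters, 1 was called higher and 0 lower, at a median log2 fold change of -0.00. *Slc16a1*, which encodes the lactate and proton cotransporter MCT1, rose from 43.2 ± 5.82 to 106 ± 29.7 CPM (SD, n = 4 each). Its log2 fold change was 1.29 (SE 0.20, adjusted p = 0.00449 in edgeR), every ISOGK liver was above every vehicle liver, and it was called in all 16 alternatives. *Bsg*, which encodes the chaperone of that transporter and was the most abundant gene of the list, had a log2 fold change of 0.04 (adjusted p = 0.847 in edgeR). These transporters thus include genes with higher levels in the same livers where *Car3*, *Car5a* and *Car8* were lower, and a link between them was not tested.

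Bicarbonate made by carbonic anhydrases is a substrate of the biotin carboxylases and of carbamoyl phosphate synthetase, and the mitochondrial form encoded by *Car5a* serves those in the same compartment. Pyruvate carboxylase was looked up only under the symbol *Pc*, which was not in the table, so no value is given for it. Of 10 tested bicarbonate-using enzymes and their biotin-handling partners, 0 were called higher and 2 lower, at a median log2 fold change of -0.09. The 2 were *Acaca*, the cytosolic acetyl-CoA carboxylase (log2 fold change -0.75, adjusted p = 0.00801 in edgeR, every ISOGK liver below every vehicle liver), and *Mccc1*. *Mccc1*, a subunit of mitochondrial methylcrotonyl-CoA carboxylase, fell from 44.4 ± 6.14 to 33.0 ± 3.35 CPM (SD, n = 4 each), with a log2 fold change of -0.43 (SE 0.12, adjusted p = 0.0461 in edgeR). It was called in 7 of 16 alternatives, and its adjusted p was 0.0741 to 0.132 in edgeR without any 1 of vehicle mice 1, 2 and 4 or ISOGK mice 1, 2 and 4. *Cps1*, the carbamoyl phosphate synthetase gene and the most abundant of the list, had 5353 ± 409 CPM with vehicle and 5813 ± 1251 CPM with ISOGK (SD, n = 4 each), and its groups overlapped (log2 fold change 0.12, adjusted p = 0.665 in edgeR). *Car5a* thus had a mean at 45.0% of vehicle in livers where *Cps1* had overlapping levels.

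**Figure D5:**
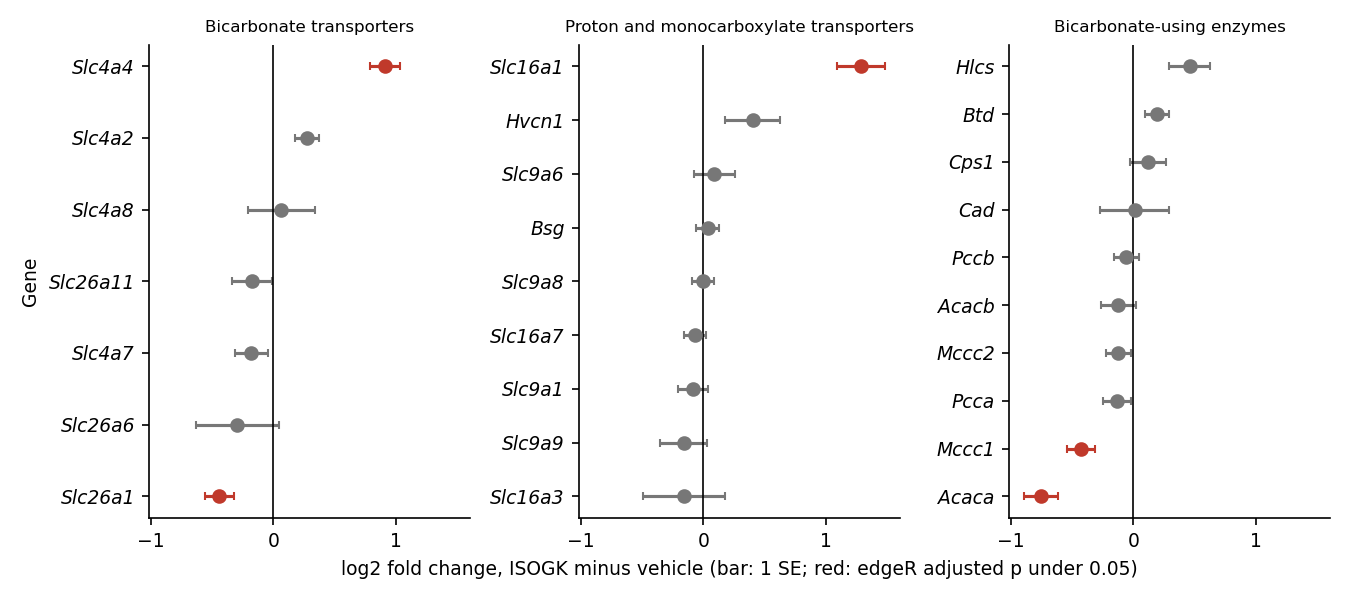
Log2 fold change, ISOGK minus vehicle, of the tested genes of 3 lists related to carbonic anhydrases, with bars of 1 standard error and genes with an edgeR adjusted p under 0.05 in red. *Slc4a4* (0.91) and *Slc16a1* (1.29) lie to the right, and *Slc26a1* (-0.44), *Mccc1* (-0.43) and *Acaca* (-0.75) to the left.

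The CO2 that carbonic anhydrases hydrate comes from dehydrogenases and decarboxylases, and the ammonia that meets *Car5a*-derived bicarbonate is handled by the urea cycle. Of 21 tested CO2-releasing dehydrogenases and decarboxylases, 2 were called higher (*Dlst* and *Ogdh*, both of the oxoglutarate dehydrogenase complex) and 0 lower, at a median log2 fold change of -0.02, and 1 to 4 were called over the alternatives (4 higher by DESeq2). The genes of this list summed to 3400 to 3935 CPM with vehicle and 4014 to 5220 CPM with ISOGK. Without *Pck1*, the most abundant, the sums were 1537 to 1627 and 1633 to 1795 CPM, also without overlap. Of 11 tested genes of the urea cycle and ammonia handling, 1 was called higher (*Asl*) and 1 lower (*Glud1*), with a median of 0.09, and 1 to 3 were called over the alternatives. *Asl*, the argininosuccinate lyase gene, had a log2 fold change of 0.98 (SE 0.15, adjusted p = 0.00336 in edgeR), with every ISOGK liver above every vehicle liver. Both *Asl* and *Dlst* were called in all 16 alternatives, while *Ogdh* was called in 8 and *Glud1* in 7.

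*Car3* and other carbonic anhydrases differ in level across the liver lobule and between the sexes, so lists of such genes were set beside them. Of 19 tested pericentral hepatocyte genes, 3 were called higher and 3 lower (median log2 fold change 0.05), and of 16 tested periportal genes 3 were called higher and 0 lower (median 0.09). The number called was 2 to 6 over the alternatives for the pericentral genes and 2 to 7 for the periportal genes, of which DESeq2 called 5 higher and 2 lower. Of 19 tested male-biased hepatocyte genes, 3 were called higher and 0 lower (median 0.38), and of 11 tested female-biased genes 1 was called higher and 2 lower (median -0.17), with 2 to 5 called over the alternatives and 1 higher and 3 lower by DESeq2. DESeq2 called 9 of the male-biased genes higher and 2 lower, limma-voom 4 and 1, and the number called was 1 to 11 over the alternatives. Their summed level was 13577 to 17858 CPM with vehicle and 17882 to 24196 CPM with ISOGK, with *Serpina1e* the most abundant, and without it the groups overlapped. Of the 19 tested male-biased genes, 15 had a log2 fold change above 0 and 4 below 0. Among those below was *Hsd3b5*, chosen after the data had been seen, with 71.3 CPM with vehicle and 17.3 CPM with ISOGK. Its log2 fold change was -2.04 (adjusted p = 0.0708 in edgeR), and -2.81 to -1.77 over the 16 alternatives, of which 4 called it. ISOGK mouse 1 stood at 38.7 CPM for *Hsd3b5*, and the other ISOGK livers at 6.60 to 12.7 CPM. Hypoxia-inducible genes were set beside *Car9* and *Car12*: of 16 tested, 2 were called higher (*Bnip3* and *Ndrg1*) and 0 lower, with a median of 0.02. The number called was 0 to 4 over the alternatives. *Ldha*, the most abundant, was not called (log2 fold change 1.05, adjusted p = 0.0693 in edgeR), but had every ISOGK liver above every vehicle liver. The hypoxia-inducible genes summed to 1454 to 1802 CPM with vehicle and 1860.2 to 4089 CPM with ISOGK, of which *Ldha* made up most, and without it the groups overlapped. *Bnip3* was called in 11 and *Ndrg1* in 5 of the 16 alternatives. The part of zonation, sex-biased expression or oxygen supply in the carbonic anhydrase levels was not tested.

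Several carbonic anhydrases are also known from other cell types, whose markers were read in the same livers. *Car1* and *Car2* are known from red blood cells, and the 12 erythroid markers in the table summed to 140.1, 112, 116 and 139 CPM with vehicle and 164, 166, 78.6 and 166 CPM with ISOGK. ISOGK mouse 3 was the lowest of the 8 livers for these markers. Of 8 tested erythroid markers edgeR called 0 (2 with an unadjusted p under 0.05, 0 by DESeq2 and 0 by limma-voom), with a median log2 fold change of 0.42 and *Alas2* the most abundant at 64.4 CPM. Without ISOGK mouse 3 the number called was 4, the globin genes *Hba-a1*, *Hba-a2*, *Hbb-bs* and *Hbb-bt*, all higher with ISOGK. Over all 8 livers, 5 of the 8 tested had a log2 fold change above 0 and 3 below 0, among them *Alas2*. Without *Alas2* the markers summed to 43.1 to 61.3 CPM with vehicle and 38.5 to 109 CPM with ISOGK, and the groups overlapped. *Car3* is also known from fat: the adipocyte genes *Adipoq*, *Plin1*, *Lep* and *Retn* were not in the table, and *Cidea* and *Adig* had at most 4 counts in a library. The 8 adipocyte markers in the table summed to 129 to 159 CPM with vehicle and 160.3 to 199 CPM with ISOGK, of which *Pnpla2*, also expressed by hepatocytes, made up most, and without it the groups overlapped. Of 5 tested, 1 was called higher (*Pnpla2*, in 5 of 16 alternatives) and 0 lower, with a median of 0.29. The other 4 had log2 fold changes of 0.36 (*Plin4*, at 19.3 and 24.7 CPM), 0.29 (*Adrb3*), 0.00 (*Lipe*) and -0.15 (*Fabp4*), and *Cfd*, which was not tested, had 0.371 CPM with vehicle and 0.156 CPM with ISOGK.

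*Car2* is further known from bile duct cells, and the cholangiocyte markers summed to 33.5 to 41.4 CPM with vehicle and 32.2 to 76.9 CPM with ISOGK. Of 7 tested, 1 was called higher (*Sox9*, in 4 of 16 alternatives) and 0 lower (median 0.52), with *Spp1* the most abundant. Of these 7, 4 were higher with an unadjusted p under 0.05, DESeq2 called 2 higher and limma-voom 1. Of 11 tested Kupffer cell and macrophage markers, 0 were called higher and 1 lower (*Cd68*), with a median of -0.39 and sums of 1385 to 1754 CPM with vehicle and 1111 to 1448 CPM with ISOGK. Of these 11, 10 had a log2 fold change below 0 and 3 were lower with an unadjusted p under 0.05. DESeq2 called 2 of them lower and limma-voom 1. In edgeR 0 of 10 endothelial, 0 of 10 stellate and 0 of 2 pancreatic acinar markers were called (2, 1 and 0 with an unadjusted p under 0.05, 0, 1 and 0 called by DESeq2, and 0 by limma-voom). Their median log2 fold changes were -0.09, -0.13 and 0.15. None of the 12 skeletal muscle markers had enough counts to be tested. The part of these cell types in the carbonic anhydrase levels was not tested.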

How the data were processed

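Liver RNA of 4 vehicle and 4 ISOGK mice was measured by RNA sequencing, with 1 library per mouse. The values deposited by the authors are whole-number read counts per gene symbol, without normalization. By the submitters' processing notes, reads were aligned to mm10 with HISAT2 2.0.5 and counted with StringTie 1.3.3b, and the use of strand is not given in the sources used here. Columns named DMSO were taken as the vehicle group.

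Genes were filtered with filterByExpr (minimum count 10, minimum total 15), which left 12307 of 16540 genes. Counts were scaled with TMM factors and tested with the robust quasi-likelihood test of edgeR 4.0.16 in R 4.3.3, with Benjamini-Hochberg adjustment over all tested genes. The log2 CPM used a prior count of 2, and standard errors are the absolute log2 fold change divided by the square root of F. Total counts per library, 17457106 to 24461854, set the precision of low counts.

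The members and gene lists were chosen with earlier results of these data known. Named genes were all carbonic anhydrases in the table, up to 3 called genes per list by smallest adjusted p, up to 2 with the highest mean CPM, and the 3 genes most correlated with each tested member. Not every gene so named is reported, and *Aph1a* was added for its position. A few genes were left out of the lists and of the correlations and not used here. *Hsd3b5* and the adipocyte genes other than *Pnpla2* and *Plin4* were named outside this rule, after the data had been seen. Alternatives were edgeR with DESeq2's size factors, edgeR with library size alone, every gene with at least 1 count, at least 10 counts in every library, DESeq2 1.42.0 (Wald test), voom in limma 3.58.1, a fit without the robust option, a block on replicate number, each library left out in turn, CPM without TMM factors, and the longest transcript as length. Coordinates and exon lengths are from GENCODE M21 (GRCm38, the same assembly as mm10), in which 16211 of the 16540 symbols and all 16 carbonic anhydrase symbols were found.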

Additional observations from a re-analysis of the deposited data

Results flagged for a closer look

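In each group of 4 values examined, a liver was set apart when its gap to the nearest other liver took up most of the range of the group (Dixon's test at its usual critical value). This held in 15 of 186 groups, where chance gives about 1 in 20, or 9.3, for independent groups of normally distributed values. Some groups here hold counts near 0, and some sums share genes with other groups, so 9.3 is not an exact expectation. Among the carbonic anhydrases, *Car8* stood at 64.1 CPM in vehicle mouse 2 against 50.5 to 52.5 CPM in the other vehicle livers. The summed level of the selected carbonic anhydrases was 321 CPM in ISOGK mouse 2 against 176 to 199 CPM in the others. *Car11* was at 0.506 CPM in vehicle mouse 3 against 0.0446 to 0.119 CPM, which rests on 13 counts. *Car6* was at 0.0395 CPM in vehicle mouse 2 against 0, which is 1 count.

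Skeletal muscle markers summed to 86.9 CPM in vehicle mouse 4 against 0 to 0.623 CPM, with *Myh4* at 20.1 CPM and *Acta1* at 16.3 CPM there and at 0 in the other vehicle livers. In the ISOGK group the same sum was 0.226 CPM in mouse 3 against 0.576 to 0.588 CPM. Erythroid markers summed to 78.6 CPM in ISOGK mouse 3 against 164 to 166 CPM, and *Hbb-bs* was at 10.4 CPM there against 38.3 to 42.4 CPM. *Cyp17a1* was at 84.2 CPM in ISOGK mouse 3 against 45.5 to 52.0 CPM. *Bsg* was at 266 CPM in ISOGK mouse 4 against 220.4 to 226 CPM, and *Fcgr2b* at 93.0 CPM in the same mouse against 68.6 to 72.6 CPM. *Glud1* was at 638 CPM in ISOGK mouse 2 against 748 to 753 CPM. *Trf* was at 18548 CPM in vehicle mouse 4 against 16751 to 17031 CPM.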

How the results depend on the processing

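The log2 fold changes of the carbonic anhydrases kept their sign in all alternatives run. They ranged from -3.04 to -2.48 for *Car3*, -1.27 to -0.97 for *Car5a*, -0.71 to -0.50 for *Car8*, -0.65 to -0.42 for *Car14*, -0.49 to -0.29 for *Car1* and 0.01 to 0.26 for *Car2*. The number of selected genes called, 3, was 2 to 4, with *Car8* lost without vehicle mouse 2 or ISOGK mouse 2 and *Car14* added by DESeq2, by library size alone, by the block and without vehicle mouse 3 or ISOGK mouse 2. Beside this, the number of all genes called, 929 of 12307, was 1435 of 12307 with DESeq2. With each library left out in turn it ran from 379 of 12438 (without vehicle mouse 2) to 1235 of 12447 (without ISOGK mouse 3). Those also over an absolute log2 fold change of 1, 200, were 123 to 250 with each library left out. The called bicarbonate transporters, 2, were 1 with the replicate number as a block and 1 to 2 with each library left out. The called bicarbonate-using enzymes, 2, were 1 with limma-voom, 1 without the robust option, 1 with the block and 1 to 2 with each library left out. The cause was not tested. With library size alone, the median log2 fold change of all genes was -0.13, and 804 genes were lower and 262 higher, or 75.4% lower in place of 45.5%. With the block, 827 genes were called. The deviations of same-numbered mice from their group means had r of 0.013, -0.014, 0.075 and 0.085, too low to show that they share more than a number.

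With the longest transcript as length, the levels per kilobase with vehicle and ISOGK were 1.88 and 2.06 CPM for *Car2*, 516 and 82.5 for *Car3*, 18.1 and 12.6 for *Car14*, 0.717 and 0.570 for *Car5b* and 0.300 and 0.230 for *Car7*, higher by construction since that length is shorter. Depth limits *Car9*, *Car4*, *Car6*, *Car11* and *Car15*, at 0 to 13 counts per library, for which a difference was not detectable, and *Car7*, at 5 to 20 counts.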
